A study of Arabidopsis thaliana with 18 samples.

Results

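A group of 12 Arabidopsis thaliana genes had low transcript levels in the first of 3 serial sets of arrays and higher levels in the other sets, with and without SA. The exception was AT3G02480, whose level in SA set 2 was near that of SA set 1. The genes were chosen for this pattern on the silwet arrays, among 11933 probe sets that the platform's table ties to exactly 1 gene known there by its locus code, out of 22810 probe sets in all. Probe sets of exactly 1 gene covered 13356 genes. Levels were taken as log2(signal + 16). A gene was kept where silwet set 1 lay at least 0.7 below the mean of silwet sets 2 and 3 in each of the 3 replicate numbers, and where the mean of SA minus silwet in set 1 lay between -0.7 and 0.7. These thresholds fix the low silwet level of set 1 and keep SA set 1 near it, so both are descriptions of the choice and are given without a test. AT2G34250 and AT5G07340, both of endoplasmic reticulum folding and secretion, were excluded by the rule, and neither met the thresholds.

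The plants were of accession Mt-0. Those of the SA groups received SA, read here as salicylic acid, at 0.30 mM together with the surfactant silwet at 0.02%, and those of the silwet groups received silwet at 0.02% alone, so the surfactant was common to all groups. Total RNA was hybridised to 18 ATH1 arrays, 3 for each of SA sets 1, 2 and 3 and of silwet sets 1, 2 and 3. The sets are runs of consecutive serial numbers in the array titles, and each holds replicates 1, 2 and 3. The labels used here give no tissue, plant age or time for the sets, and no order in time is read from their numbers. Nothing says that replicates came from separately grown plants, so p-values measure the spread between arrays, which may be partly technical.

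The tables used here carry only the locus codes of the 12 genes, and the families named below are background from the general Arabidopsis annotation, with no test of any family. GDSL esterases and lipases cleave ester bonds of lipids and cell wall polymers, and some of them build or remodel the cuticle. Hybrid proline-rich proteins with a lipid-transfer fold sit in walls and membranes, and several take part in systemic defence. Silwet lowers surface tension so that a spray spreads over the waxy leaf surface. SA is the hormone through which plants raise defences against biotrophic pathogens.

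All arrays had been scaled to a trimmed mean of 100.01 to within rounding, and their median signal ran from 27.5 to 37.3. The lowest median was that of SA set 3 replicate 2, which also had the highest 3′ over 5′ ratio of GAPDH, at 0.922 on the log2 scale. The leaf marker RCA (Rubisco activase), the only 1 of 3 leaf markers named here, had signals from 1612 to 4329, and PYK10, the 1 named root marker of 5, had 32.4 to 228. None of 5 flower markers and none of 6 seed markers was named. In bulk RNA, fewer cells of a type and less RNA per cell cannot be told apart. For the ubiquitin control, the 3′ over 5′ signal, as a log2 ratio, was 0.706 to 1.12 on the SA set 1 arrays, against 1.15 to 1.81 on those of silwet set 1 and 1.23 to 1.69 on the other 12 arrays. The same ratio of actin and of GAPDH in set 1 lay inside the range of the other arrays. The part of RNA quality in the levels below was not tested.

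The silwet difference of set 1 from sets 2 and 3 ran from -2.55 in AT4G12490 to -0.91 in AT3G43670, with a median of -1.46 on the log2 scale, beside a median of 0.01 over all 13647 tested probe sets. On SA arrays the same difference was below 0 in all 12 genes and ran from -2.32 to -0.69, with a median of -1.36 against -0.10 over all tested probe sets. Of these SA arrays, only those of set 1 entered the choice of genes. SA set 1 was the lowest of the 3 sets in each replicate number for 10 of the 12 genes, against 23.3% of all tested probe sets. The exceptions were AT2G44240, whose replicate 3 was higher in SA set 1 (231) than in SA set 2 (221), and AT3G02480, whose replicate 1 was (37.0 against 23.6). In 8 of the 12 genes all 3 SA set 1 arrays lay below all 6 arrays of SA sets 2 and 3, a separation that 16.5% of all tested probe sets showed in this direction. On silwet arrays 6 of the 12 genes were separated in this way, against 2.79% of all tested probe sets, and 11 of 12 were when silwet set 1 replicate 3 was left out. Nothing is read from the counts of either treatment. The silwet arrays chose the genes, and the bound on SA minus silwet kept SA set 1 near the low silwet set 1.

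**Figure D1:**
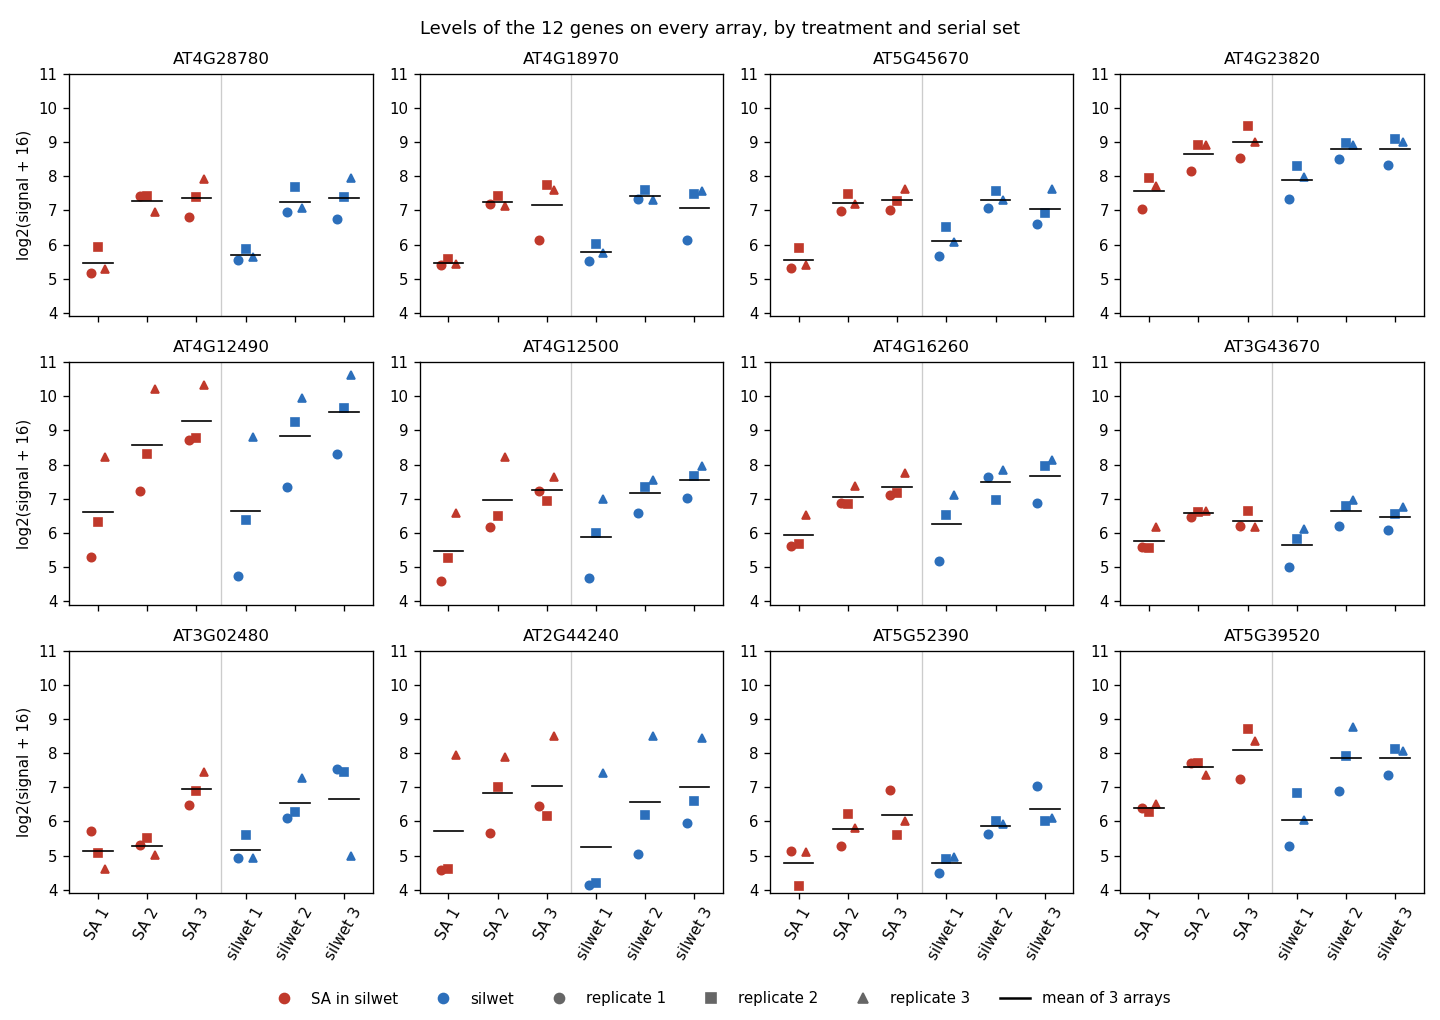
The level of each of the 12 genes on every array is plotted as log2(signal + 16) against treatment and serial set, SA in red and silwet in blue, with a symbol for each replicate number and a line at the mean of 3 arrays. In every panel both set 1 means lie below the means of sets 2 and 3 of the same treatment, and AT4G12490 and AT2G44240 have a high replicate 3 throughout.

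Among the lipid and wall enzymes were 3 members of the GDSL esterase and lipase family. AT4G28780 had signals of 19.7, 45.3 and 22.6 for replicates 1, 2 and 3 in SA set 1, against 156, 155 and 108 in SA set 2 and 95.1, 150.2 and 226 in SA set 3. In silwet set 1 it had 31.1, 42.2 and 33.9, against 109, 188 and 119 in silwet set 2 and 91.4, 152 and 228 in silwet set 3. Set 1 was the low group under either treatment, with no overlap with the other sets. The log2 difference of set 1 from the mean of sets 2 and 3 was -1.86 on SA arrays and -1.61 on silwet arrays.

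AT4G18970, the second GDSL gene, had signals of 25.9, 32.0 and 27.4 in SA set 1, against 131, 155 and 123 in SA set 2 and 54.0, 198 and 176 in SA set 3. Silwet set 1 gave 30.2, 48.5 and 38.3 for it, against 145, 176 and 143 in silwet set 2 and 54.0, 161 and 175 in silwet set 3. Replicate 1 of set 3 was low under either treatment and still lay above every set 1 array of the gene. The set differences were -1.73 on SA arrays and -1.47 on silwet arrays.

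AT5G45670, the third GDSL gene, had 23.5, 44.2 and 26.5 in SA set 1, against 111, 162 and 129.5 in SA set 2 and 112, 138 and 179 in SA set 3. Its silwet set 1 signals were 35.2, 76.2 and 51.5, against 119.5, 172 and 141 in silwet set 2 and 80.4, 105 and 180.3 in silwet set 3. It lay closest to the threshold of all 12 genes, at -0.71 in replicate 2. Within set 1 it was lower in SA than in silwet in all 3 replicate numbers, by a mean of -0.55, the largest such difference among the 12 genes.

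AT4G23820, of the pectin lyase-like family of wall-loosening enzymes, had signals of 116, 231 and 194 in SA set 1, against 270.0, 465 and 464 in SA set 2 and 353, 694 and 499.8 in SA set 3. In silwet set 1 the signals were 146, 299 and 238, against 344, 486 and 462 in silwet set 2 and 303, 532 and 493 in silwet set 3. Replicate 1 was the lowest of the 3 arrays in every group, yet no set 1 array reached an array of the other sets of its treatment. Its difference between sets was -1.26 on SA and -0.92 on silwet arrays.

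The neighbouring genes AT4G12490 and AT4G12500, whose products are hybrid proline-rich proteins with a lipid-transfer fold, had a wide spread between replicates. They lie 2 steps apart in the gene order of RefSeq's TAIR10.1 table. Whether transcripts of one gene bind probes of the other was not tested, and both probe sets carry the plain suffix _at, without the s or x that marks shared probes. AT4G12490 had signals of 23.4, 63.9 and 284 in SA set 1, against 135, 301 and 1171 in SA set 2 and 409.6, 426 and 1260.3 in SA set 3. Silwet set 1 arrays gave 10.9, 66.6 and 432, against 147, 594 and 963 in silwet set 2 and 303, 783 and 1570.0 in silwet set 3. Replicate 3 was the highest in all 6 groups and replicate 1 the lowest, so that replicate 3 of set 1 exceeded replicate 1 of set 2 under either treatment. Within each replicate number set 1 was nevertheless the lowest set.

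AT4G12500 had signals of 8.08, 22.3 and 80.5 in SA set 1, against 56.0, 74.1 and 282 in SA set 2 and 134, 106 and 183 in SA set 3. It had 9.74, 47.4 and 110.5 in silwet set 1, against 81.0, 146 and 173 in silwet set 2 and 115, 187 and 233 in silwet set 3. The difference of set 1 was -1.63 on SA arrays and -1.48 on silwet arrays, against -2.32 and -2.55 for its neighbour. A further locus of the same stretch with a probe set of its own, AT4G12530, was at -0.03 in silwet and was named after its value had been seen. The mean log2 levels of AT4G12530 ran from 4.36 in SA set 2 to 4.62 in SA set 1, near the lowest level the scale can give. A lower level in set 1 could hardly show at such weak signals, so nothing is read from its difference.

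Among genes linked to defence, AT4G16260 encodes a glycosyl hydrolase of the beta-glucanase family, enzymes that cut callose and fungal wall glucans. Its signals were 32.8, 34.7 and 77.0 in SA set 1, against 103, 99.5 and 151 in SA set 2 and 122, 127 and 202 in SA set 3. They were 20.3, 76.2 and 123 in silwet set 1, against 185, 109 and 212 in silwet set 2 and 103, 235 and 266 in silwet set 3. The SA groups were separated and the silwet groups overlapped, through replicate 3 of silwet set 1. As in the lipid-transfer genes, replicate 3 was the highest array of every group.

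AT3G43670, of the copper amine oxidase family, whose members oxidise polyamines and release hydrogen peroxide, had the smallest difference. Its signals were 32.1, 31.1 and 55.9 in SA set 1, against 72.1, 82.7 and 84.1 in SA set 2 and 58.1, 84.3 and 56.2 in SA set 3. In silwet set 1 they were 16.2, 40.4 and 53.7, against 57.5, 95.7 and 108 in silwet set 2 and 51.5, 77.2 and 93.3 in silwet set 3. The highest SA set 1 array lay just below the lowest array of the other SA sets, and the silwet groups overlapped. The set difference was -0.69 on SA arrays and -0.91 on silwet arrays.

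AT3G02480 encodes a late embryogenesis abundant protein, a family of hydrophilic proteins that accumulate on drying and after abscisic acid. It departed from the others in SA set 2. Its signals were 37.0, 17.8 and 8.36 in SA set 1 and 23.6, 29.7 and 16.3 in SA set 2, against 73.9, 103 and 159 in SA set 3. In silwet they were 14.6, 32.9 and 14.5 in set 1, against 53.4, 61.2 and 139 in set 2 and 169, 158 and 15.7 in set 3. SA set 2 was thus at the level of set 1. It lay below every array of silwet set 2, as 5.42% of tested probe sets did, and below every array of SA set 3. Replicate 3 of silwet set 3 was also at the set 1 level, apart from its 2 companion arrays.

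Of the remaining genes, AT2G44240 encodes a protein of the neprosin family, named after a prolyl-cleaving protease of pitcher plants. It had signals of 8.16, 8.39 and 231 in SA set 1, against 34.2, 112 and 221 in SA set 2 and 72.2, 55.7 and 348 in SA set 3. Silwet set 1 had 1.67, 2.24 and 153, against 16.9, 57.4 and 345 in silwet set 2 and 46.7, 81.0 and 331 in silwet set 3. Replicate 3 was far above replicates 1 and 2 in set 1, whose signals were under 16 under either treatment, so no ratio is given. SA minus silwet in set 1 had a mean of 0.47, of which replicates 1 and 2 rest on signals under 16 under either treatment and are given no direction.

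AT5G52390 encodes a protein of the PAR1 family, named after a gene of tobacco that responds to photoassimilates. It had signals of 19.3, 1.44 and 18.7 in SA set 1, against 22.7, 58.3 and 40.6 in SA set 2 and 106, 32.5 and 48.0 in SA set 3. Its silwet signals were 6.42, 13.9 and 15.3 in set 1, against 33.9, 48.7 and 44.9 in set 2 and 115, 48.1 and 52.1 in set 3. Set 1 was separated from the other sets under either treatment, on SA arrays only by 19.3 against 22.7. All its silwet set 1 signals and 1 SA set 1 signal were under 16, so the separation rests on weak values. AT5G39520, which holds a domain of unknown function, had 68.1, 61.5 and 74.4 in SA set 1, against 192, 192 and 149 in SA set 2 and 136, 400.4 and 312 in SA set 3. Silwet gave 22.6, 97.7 and 50.3 in set 1, against 103, 224 and 417 in set 2 and 149, 262 and 253 in set 3. The 3 SA set 1 arrays of this gene lay close together, whereas replicate 2 of silwet set 1 came close to replicate 1 of silwet set 2.

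Of the 216 signals of the 12 genes, 15 were under 16, the constant added before taking logs, and 14 of these were in set 1. They came from AT2G44240, AT3G02480 and AT5G52390, with 4 each, AT4G12500 with 2 and AT4G12490 with 1. For these the log2 differences understate the ratio of signals, and no order is read among such weak values.

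**Figure D2:**
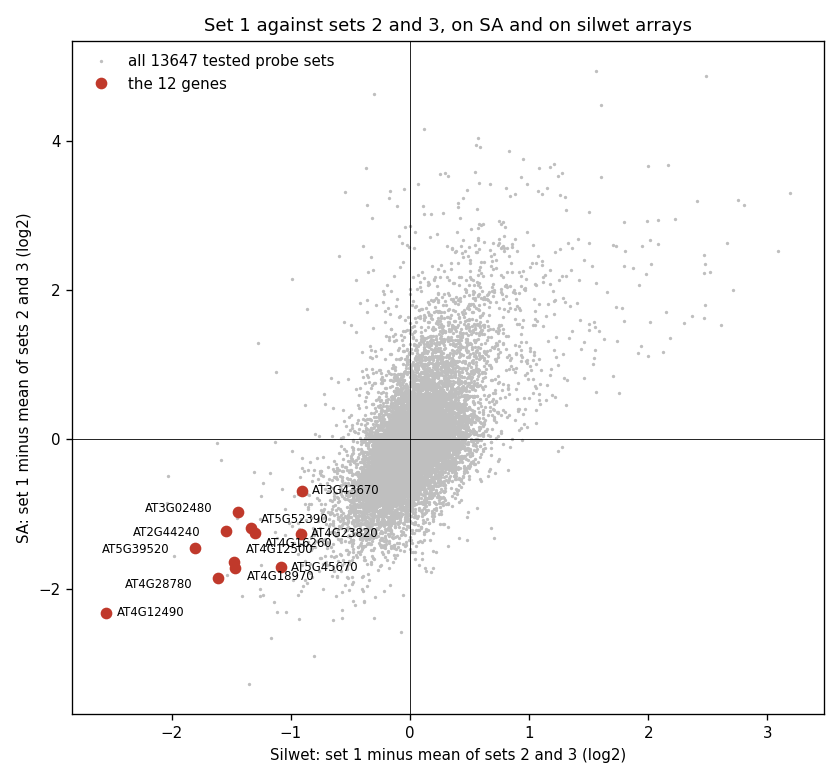
For each of the 13647 tested probe sets (grey) and the 12 genes (red), the log2 difference of set 1 from the mean of sets 2 and 3 on SA arrays is plotted against that on silwet arrays. The 12 genes lie at or below -0.91 on the silwet axis, where they were chosen, and between -2.32 and -0.69 on the SA axis.

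SA sets 2 and 3 are the arrays that took no part in choosing the genes, and whether the 12 levels differed between these sets was tested. None of the 12 genes was called in SA set 2 minus SA set 3 (limma, Benjamini-Hochberg adjustment over 13647 probe sets, two-sided, lowest adjusted p = 0.913), beside 0% of all tested probe sets, of which 588 had an unadjusted p under 0.05. The median of the 12 differences was -0.31, against 0.03 over all tested probe sets, and 10 of 12 were below 0. AT3G02480 had the largest difference, -1.67 ± 0.51 (SE), with an adjusted p of 0.913 (limma). In this fit it was the 1 gene of the 12 with an unadjusted p under 0.05. Without SA set 3 replicate 2 it was at -1.69. All 3 of its SA set 2 arrays lay below all 3 of SA set 3, a separation that 4.06% of tested probe sets showed in this direction. For the 3 GDSL genes the differences were -0.10 ± 0.31 in AT4G28780, 0.09 ± 0.37 in AT4G18970 and -0.08 ± 0.27 in AT5G45670 (SE), the signs of which turned with single arrays left out. Their 95% intervals reached from -0.76 to 0.56, from -0.68 to 0.86 and from -0.65 to 0.50. Differences within those bounds are not excluded by the missing calls. For AT4G12490 and AT2G44240 the intervals were wider, from -2.79 to 1.41 and from -2.48 to 2.08. This model holds no term for the replicate number. With that number as a block, the SE fell from 0.995 to 0.35 in AT4G12490 and from 1.08 to 0.367 in AT2G44240. In AT4G23820, at -0.34 in either fit, it fell from 0.316 to 0.133. None of these genes was called with the block (limma).

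On silwet arrays, set 2 minus set 3 had a median of -0.11 over the 12 genes and ran from -0.68 in AT4G12490 to 0.35 in AT4G18970. None of the 12 genes had silwet sets 2 and 3 apart without overlap, beside 5% of tested probe sets lower in set 2 and 4.68% higher. These arrays chose the genes through their mean, and the values are a description.

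**Figure D3:**
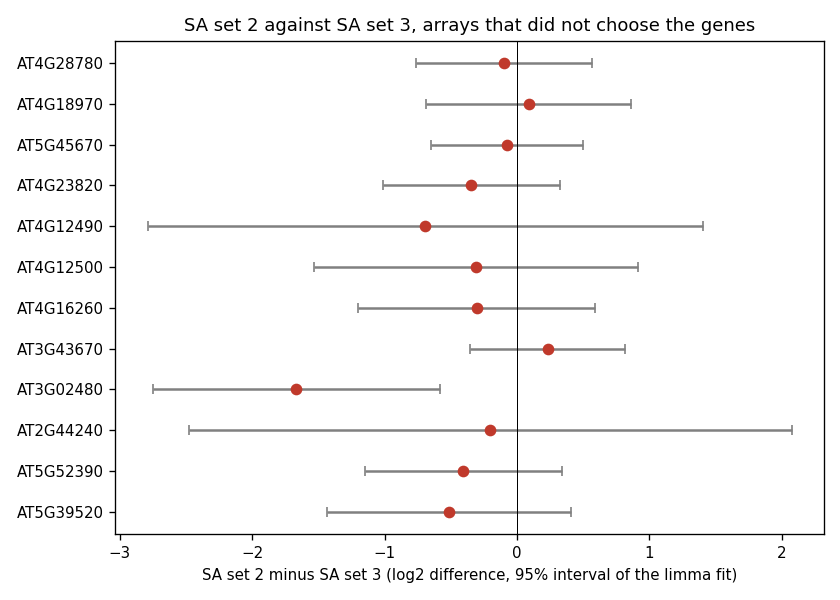
Points give the log2 difference of SA set 2 from SA set 3 for each gene and bars its 95% interval from the limma fit. The intervals of 11 genes include 0, and that of AT3G02480 lies from -2.75 to -0.58 before any adjustment.

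SA and silwet were then set side by side in sets 2 and 3, where the genes were at their higher level. The silwet arrays of these sets chose the genes for high values, so no member was tested here. In set 2 the median of SA minus silwet was -0.15 over the 12 genes, beside 0.01 over all tested probe sets, and values ran from -1.27 in AT3G02480 to 0.27 in AT2G44240. In set 3 the median was 0.02, beside -0.01, and values ran from -0.32 in AT4G16260 to 0.29 in AT3G02480. No probe set at all was called in either comparison (limma, 0% each), and 233 and 187 had an unadjusted p under 0.05. That fit held no term for the pairs of same-numbered SA and silwet arrays, which deviated together. When the 9 pairs of arrays with equal set and replicate number were blocked, there was again none, with 1313 and 955 at an unadjusted p under 0.05. The missing calls do not show that SA left levels in sets 2 and 3 unchanged. SA minus silwet in set 1, which the rule bounded for the 12 genes, had 3591 of all tested probe sets at that level without the block (limma).

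AT3G02480 was lower in SA in all 3 pairs of set 2, by -0.81, -0.76 and -2.26, and in 2 of 3 pairs of set 3, at -1.04, -0.54 and 2.46. The last value comes from replicate 3 of silwet set 3, the array at the set 1 level. AT4G16260 had a lower mean in SA in both sets, at -0.44 and -0.32, with 5 of 6 pairs below 0. AT4G12490 and AT4G12500 were at -0.26 and -0.21 in set 2 and at -0.25 and -0.29 in set 3, each with replicate 2 lowest and with pairs on either side of 0. AT4G28780 was at 0.03 in set 2 and 0.00 in set 3, and its 3 pairs of set 3 lay between -0.02 and 0.05.

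**Figure D4:**
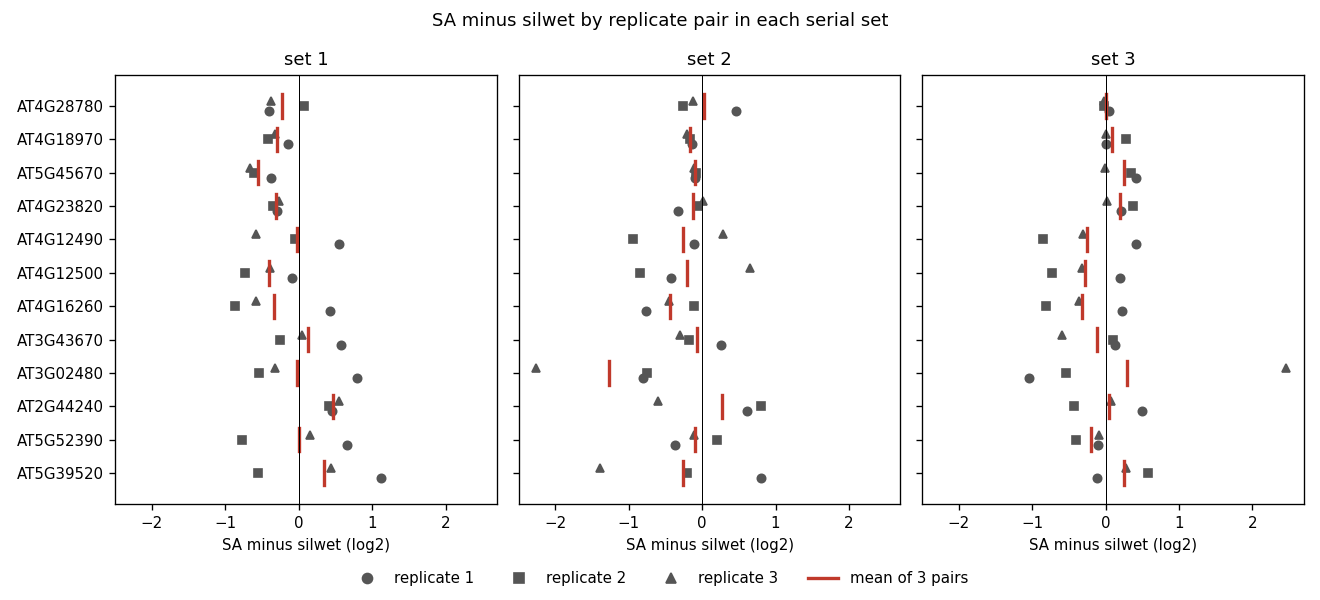
For each gene the log2 difference of SA from silwet is plotted for the 3 same-numbered pairs of a set, with a bar at their mean, in sets 1, 2 and 3. In set 1 the rule holds all means between -0.7 and 0.7. In set 3 the pairs of AT4G28780 nearly coincide, while those of AT3G02480 spread from -1.04 to 2.46.

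The replicate numbers carried differences of their own in some genes. Replicate 3 was the highest array in all 6 groups for 4 genes, AT4G12490, AT4G12500, AT4G16260 and AT2G44240, of which AT4G12490 and AT2G44240 show it most. AT4G23820 and AT5G45670 had replicate 1 lowest in all 6 groups, as did AT4G12490. The labels do not say what a replicate number shared.

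The thresholds cut through a continuous range. Just inside the silwet threshold were AT5G45670, AT4G23820 and AT3G43670, whose least negative replicate stood at -0.71, -0.73 and -0.74. Just outside were AT5G11420 at -0.70, AT2G47440 at -0.69 and AT3G19550 at -0.68. At the bound on SA minus silwet in set 1, AT5G45670 (-0.55), AT2G44240 (0.47) and AT4G12500 (-0.40) were the nearest inside, and AT1G67750 was left out at -0.94, the 1 locus-code gene that met the silwet thresholds alone.

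Over probe sets of any kind, 28 met the same thresholds, of which 15 were unnamed here and 1 had a gene symbol, SAG29, which encodes a sucrose transporter of senescing leaves. SAG29 had signals of 14.6, 41.6 and 6.70 in SA set 1, against 51.4, 26.1 and 24.3 in SA set 2 and 25.2, 235 and 94.1 in SA set 3. In silwet it had 6.16, 37.8 and 4.51 in set 1, against 7.52, 65.3 and 122 in set 2 and 55.2, 128 and 25.0 in set 3, so the arrays of its sets overlapped under either treatment.

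By chromosome, 6 of the 12 genes lie on chromosome 4, which carries 14.4% of the 11933 locus-code probe sets, and 3 on chromosome 5, which carries 22.6%. Chromosome 3 holds 2 of the genes and 20.5% of those probe sets, chromosome 2 holds 1 and 16.5%, and chromosome 1 holds 0 and 26.0%. These shares were not tested. Each of the 12 genes had 1 probe set.

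Pathways that might accompany such a pattern were looked at in 9 lists with 129 genes, of which 26 were named and tested. Sugar starvation and heat shock had no gene named. None of the 26 was called in silwet set 1 against sets 2 and 3 in either direction (limma), where 1.30% of all tested probe sets were called. At an unadjusted p under 0.05 there were 2, BZIP60, a transcription factor of the unfolded protein response, at 0.94 and CML38, a calmodulin-like touch response gene, at 0.93. The late embryogenesis abundant gene AT3G02480 is not in the cold and abscisic acid list. On silwet arrays that list had COR47, a dehydrin, at -0.51 ± 0.26 (SE) and COR15A, a chloroplast protein of cold tolerance, at -0.28 ± 0.25. On SA arrays both were lower in set 1, at -1.50 ± 0.26 and -0.96 ± 0.25 (adjusted p = 2.46e-04 and 0.00690, limma), the 2 tested members of 14 in the list. Of the other lists on SA arrays, 11 of 18 tested endoplasmic reticulum genes were higher in set 1 and none lower, beside 15.7% of all tested probe sets higher and 20.1% lower. CML38 was higher at 1.20 and the SA-induced glutaredoxin gene GRX480 at 2.78, and the clock gene GI was lower at -1.18, each the 1 tested gene of its list. The single light list gene, DFR, and the jasmonate genes PDF1.2 and THI2.1 were not called. On silwet arrays the same 18 genes had a median of 0.01. The leaf marker RCA was lower in SA set 1, at -0.53, and was at -0.04 on silwet arrays, and its part in the levels of the 12 genes was not tested.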

How the data were processed

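MAS5 signals of 18 arrays, on a linear intensity scale, were deposited by the authors, per the submitters' processing notes, which give no version. The trimmed mean (2% off either end) was equal on all arrays. Detection calls were not used here. The scale used is log2(signal + 16), with no added normalization. Gene names came from the platform's annotation (13513 with 1 gene, 503 with several, 8730 unnamed) and matched to RefSeq's TAIR10.1 table (13436), which also gave chromosomes and gene order. The upper 60% of Arabidopsis probe sets by mean log2 (13647, all 12 genes among them) entered limma 3.58.1 in R 4.3.3, a model of 6 cells of treatment by serial set with eBayes and trend, and a Benjamini-Hochberg threshold of 0.05. The fit was tested on simulated data with noise drawn independently for each array. Same-numbered SA and silwet arrays deviated together in the real data, a link that the simulation did not hold. The number of arrays limits the precision.

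Members and lists were chosen with earlier results of these data known. All 12 genes are named. Alternatives were 2 other pseudocounts, 2 scalings, no filter, replicate blocks, array weights, SA arrays only, and each array left out. Same-numbered SA and silwet arrays of sets 2 and 3 deviated together (correlations from 0.129 to 0.770 across probe sets over 6 pairs), as did those of set 1.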

Additional observations from a re-analysis of the deposited data

Results flagged for a closer look

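In AT4G18970 the same-numbered SA and silwet arrays differed in opposite directions between sets. SA minus silwet was below 0 in all 3 pairs of set 1, with a mean of -0.30, and in all 3 pairs of set 2, with a mean of -0.17, and above 0 in all 3 pairs of set 3, with a mean of 0.094. Of the pairs of set 3, 2 were within 0.01 of 0. In AT4G23820 SA minus silwet was below 0 in all pairs of set 1 (mean -0.31) and above 0 in all pairs of set 3 (mean 0.20). The difference between sets was not tested for either gene. Both values of set 1 lie inside the bound by which the genes were chosen.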

How the results depend on the processing

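No member was called in SA set 2 minus SA set 3 under any alternative run, including each array left out (0 to 0 calls). With the replicate number as a block, a replicate block that also gave 0 member calls, 1 probe set of 13647 was called in all, and with the 9 pairs as a random block none. Same-numbered arrays of SA sets 2 and 3 had correlations of -0.0551, 0.033 and 0.344. Between the silwet sets such correlations ran from -0.0865 to 0.519. A second number in the array titles also runs in separate ranges for replicates 1, 2 and 3, and its meaning is not stated. Within each replicate number it was highest on the set 1 arrays, and each SA array had a higher number than its silwet partner. The differences of set 1 from the other sets cannot be told apart from the order of this number, whose part was not tested. AT4G18970 was at -0.038 with array weights (an estimate that stopped short of its convergence tolerance), against 0.0895, and ran from -0.42 to 0.38 with single arrays left out. With arrays left out, AT2G44240 ran from -0.72 to 0.53, AT4G12500 from -0.94 to 0.088, AT5G45670 from -0.22 to 0.083 and AT4G28780 from -0.38 to 0.18, while the other 7 genes kept their sign. The lowest adjusted p among the 12 genes ran from 0.422 to 1 over all alternatives (limma). The rule took 36 genes with a pseudocount of 1 (10 of the 12 among them), 4 with a pseudocount of 64 (all 4 among the 12), and between 15 and 40 with a replicate number left out, the highest without replicate 1. The median silwet difference of set 1 was -1.94 and -0.87 with pseudocounts of 1 and 64, and -1.55 to -1.09 with single arrays left out; on SA arrays it was -2.04, -1.03 and -1.60 to -1.26. SA minus silwet in set 2 was -0.11 with a pseudocount of 64, -0.19 with 75th percentile scaling and -0.33 to 0.0012 with arrays left out. It was -0.31 to 0.31 in set 3 with arrays left out. Silwet set 2 minus set 3 was -0.070 with a pseudocount of 1 and -0.40 to 0.13 with arrays left out. Genes with separated silwet groups numbered 6 to 11 with arrays left out, and 5 or 6 under either scaling. Genes with separated SA groups numbered 8 to 11, and 7 or 8 under either scaling. The cause of these shifts was not tested. The alternatives for the separated groups, for each gene and for the bound on SA were chosen after seeing the data.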
